A study of Mus musculus with 2 samples.

Results

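Among the regions in which H3K4me3 tags of Mll-PTD cells exceeded those of wild-type (WT) cells at least 4-fold, 4816 were short, low autosomal regions in which the WT library had no tag at all. They were chosen by 4 deposited values: a place on chromosomes 1 to 19, a length below 1000 bases, a score below 50 for the tallest peak, and a WT value of 0.5, which the authors wrote where WT had no tag. These 4816 regions were 11.6% of the 41561 listed regions (exact binomial interval 11.3% to 11.9%), 12.7% of the 37853 autosomal ones and 91.9% of the 5240 autosomal regions that had no WT tag. Length, score and WT tags therefore describe how the regions were picked and are given below without a test.

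H3K4me3 is the trimethylated form of lysine 4 on histone H3. It is laid down by methyltransferase complexes, one of which is built around the product of Mll (now Kmt2a), and it is known best from the start sites of active and poised genes, where it forms tall and often broad peaks. In blood stem and progenitor cells, Mll is known for keeping Hox genes and other genes of self-renewal active, and its partial tandem duplication, which repeats a stretch of exons inside the gene, is known from acute myeloid leukaemia.

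The study profiled the mark by chromatin immunoprecipitation and sequencing with the antibody ab8580 in bone marrow cells of C57BL/6 mice. One library came from WT mice and 1 from mice heterozygous for the Mll-PTD knock-in, so the Mll-PTD cells also carried a normal copy of Mll. The cells are labelled as LSK cells, a name for the stem and progenitor fraction that carries Sca1 and KIT but no lineage markers. They were collected on magnetic beads against CD117 (KIT) and then Sca1, and the labels name no lineage depletion and not how many mice were pooled, their age or their sex. There were 58083118 tags for Mll-PTD and, from the scaled columns, about 43.6 M for WT. With 1 library per genotype nothing below is a test between genotypes. Intervals are at the 95% level and reflect counting error alone, and differences between sets of regions are given as values and were not tested. Gene positions and sequence of mm9, the build of the list, were not used here. Regions therefore go by their positions, and the Mll gene and markers of other cell types were not analysed here.

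In these regions the Mll-PTD signal was low. The median region held 34 Mll-PTD tags (quartiles 31 and 41, range 25 to 126), or 25.5 tags once scaled to the size of the WT library (quartiles 23.3 and 30.8, range 18.8 to 94.5). The lower quartile stood 6 tags and the upper quartile 16 tags above the lowest count. Of all 4816, 384 (7.97%, 7.22% to 8.77%) reached 40 scaled tags. In all, the regions covered 2.68 Mb and held 182776 Mll-PTD tags, which was 6.81% of the tags in the whole list and 0.315% of the Mll-PTD library.

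The tallest peaks were close to the lowest score that could be listed. The caller asked for 30 tags in a peak of 500 bases where it expected 11.4, and 2493 of the 4816 regions (51.8%, 50.3% to 53.2%) scored 30 to 32. The median score was 32 (quartiles 31 and 35). In 1320 regions (27.4%) the deposited tags of the whole region were fewer than the score of its tallest peak, so the score is not a plain count of the same tags. The same was seen in 32.2% of short low autosomal regions that had a WT tag.

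Most of the regions were 1 peak long. A length of 500 bases, the minimum, was found in 3545 (73.6%, 72.3% to 74.8%). The next length found was 625 bases, 836 regions lay above 500 and up to 750 bases, and 435 were longer. Scaled Mll-PTD tags had a median of 24 in regions of 500 bases (quartiles 22.5 and 26.3) and 35.3 in longer ones (31.5 and 42). Per length they stood close together, at 48 and 50.5 scaled tags per kb. A length of 500 bases was also the rule among the 24858 short low autosomal regions with a WT tag, at 70.1% (69.5% to 70.7%).

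A ratio to WT can be given here only as a lower bound, because the WT count was 0. With 3 WT tags per region as the floor, the bound had a median of 8.50-fold (quartiles 7.77 and 10.3, range 6.27 to 31.5). This bound takes the Mll-PTD tags as counted. The exact interval, which allows for counting error in the Mll-PTD tags as well, had a lower limit of 6.55 in the median region and 4.72 in the lowest. Both were worked out for a single region and do not allow for the choice of the regions by a WT count of 0. Of the 4816 regions, 3427 (71.2%) were at least 8-fold higher at the bound. In the whole list the share was 43.3%, with regions that had WT tags at their own ratio. Since the choice used the WT tags, nothing is read from that difference, nor from the 13.5% of the whole list that had no WT tag. The authors' deposited table puts the median fold at 51, which rests on the value of 0.5 in place of 0.

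WT tags in short low autosomal regions had 2 heights, 1 at no tag and 1 at 5 tags. All 29674 regions of that length and score on chromosomes 1 to 19 are counted here, of which those without a WT tag made up 16.2% (15.8% to 16.7%). After the 4816 regions with no WT tag, the number fell to 2628 with 1 tag. It then rose through 3179 with 2, 3691 with 3 and 4217 with 4 to 4765 regions with 5 tags. Above 5 it dropped to 3283 at 6 tags and 1433 at 7, where the 4-fold threshold leaves out regions with few Mll-PTD tags. Regions with no WT tag were therefore not the lower end of a smooth decline, since regions with 1 tag were fewer than either neighbour in this count.

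**Figure D1:**
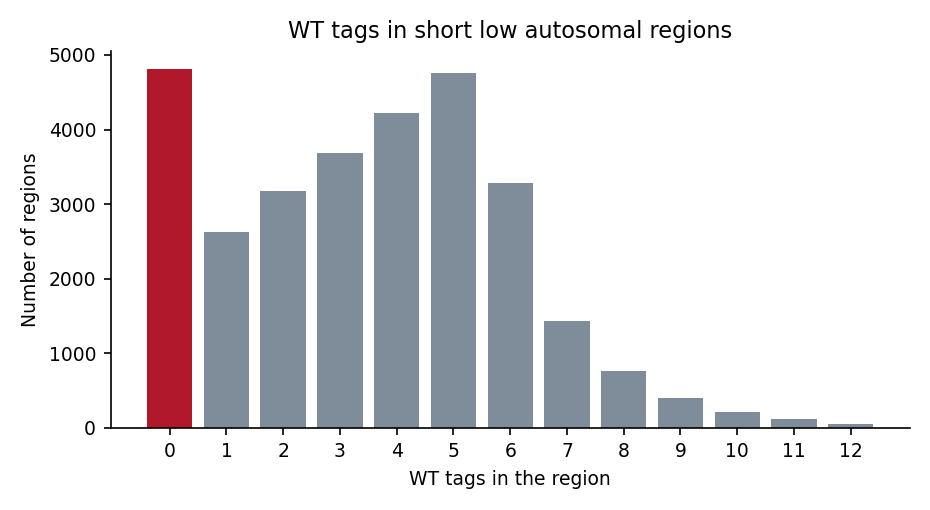
Number of short low autosomal regions (y axis) by the number of WT tags in the region (x axis, 0 to 12 tags). The red bar at no WT tag holds 4816 regions, the bar at 1 tag 2628, and the grey bars rise from there to 4765 at 5 tags.

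The dip at 1 WT tag was present at equal Mll-PTD tags. Among regions of 500 bases with 24 to below 27 scaled Mll-PTD tags, 1310 had no WT tag, 697 had 1, 852 had 2 and 940 had 3. With 30 to below 36 scaled tags, 263 had none, 121 had 1, 150 had 2 and 188 had 3. The share without a WT tag depended on the WT tags that the 4-fold threshold admitted at each height. With every region of 500 bases counted, it was 17.9% (17.0% to 18.8%) at 21 to below 24 scaled tags, 13.6% (12.1% to 15.3%) at 30 to below 36 and 10.6% (8.08% to 13.5%) at 36 to below 45. More WT tags are admitted at more Mll-PTD tags, so this fall is set in part by the list. Counted only among regions with 0 to 5 WT tags, the share went the other way, from 17.9% to 22.8% (20.5% to 25.4%) and 26.7% (20.8% to 33.2%) in the same 3 classes.

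Mll-PTD tags had close medians in regions with and without a WT tag. Scaled Mll-PTD tags had a median of 25.5 without a WT tag and 26.3 (quartiles 23.3 and 33) with one. Per kb, both medians were 49.6 (quartiles 45.5 and 54 without, 46.0 and 54.8 with a WT tag). Of regions with no WT tag, 28.2% lay in the class of 24 to below 27 scaled tags, and 25.3% of those with one. Of the set, 7.97% reached 40 scaled tags against 11.2% (10.8% to 11.6%) of regions with a WT tag. A region of 500 bases could hold at most 6 WT tags at 24 scaled Mll-PTD tags to stay on the list, so both sets were bounded by the same thresholds.

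**Figure D2:**
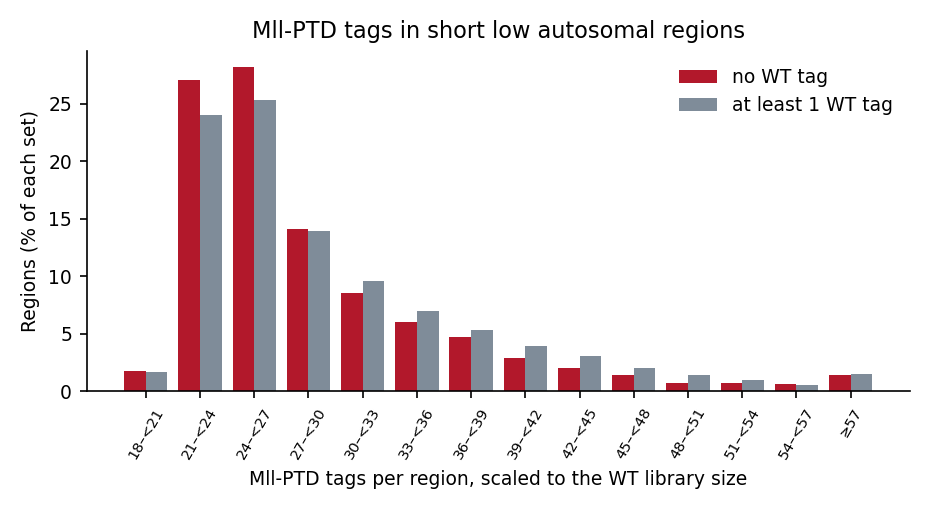
Share of regions (y axis, percent of each set) by scaled Mll-PTD tags per region (x axis, classes 3 tags wide, the last from 57 tags up), for short low autosomal regions without (red) and with (grey) a WT tag. Both sets peak at 24 to below 27 tags, with 28.2% and 25.3% of their regions.

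The score was used to choose the regions, so the share by score is given as a description. Among all regions of 500 bases the share without a WT tag was 20.4% (19.2% to 21.7%) at a score of 30 and 9.98% (7.52% to 12.9%) at 45 to 49. Among those with 0 to 5 WT tags it was 21.04% (19.8% to 22.3%) and 25.2% (19.4% to 31.8%), with a lowest value of 17.9% (15.3% to 20.7%) at 40 to 44. In regions longer than 750 bases with 0 to 5 WT tags it was 56 of 280 (15.5% to 25.2%) at a score of 30 and 36.2% (26.5% to 46.7%) at 45 to 49.

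The 10 regions with the most Mll-PTD tags were 673 to 992 bases long, lay on 9 chromosomes, and held 99 to 126 tags. The first was on chromosome 16 from 57173112 to 57174009, with 126 Mll-PTD tags (94.5 scaled) against 0 in WT. Its bound was 31.5-fold, with a lower exact limit of 25.3. A second region of chromosome 16, from 95145448 to 95146342, held 122 tags (91.5 scaled), with a bound of 30.5-fold and a lower exact limit of 24.4. Both held more than 3 times the tags of the median region of the set, which was shorter. Per kb they held 105 and 102 scaled tags, against a median of 49.6 in the set. Next came chromosome 15 from 81544619 to 81545561 with 115 tags, then chromosome 9 from 117833629 to 117834546 and chromosome 12 from 77429870 to 77430836 with 111 tags each. The other 5 were chromosome 10 from 85418309 (106 tags), chromosome 2 from 60929063 (105), chromosome 1 from 93354799 (103), chromosome 18 from 73607108 (100) and chromosome 5 from 104287349 (99). Only the chromosome 1 region, 673 bases long, was shorter than the 894 bases of the second, and it was the densest of the 10, at 115 scaled tags per kb. Some of these regions scored low, such as the chromosome 10 region with a score of 30 and the chromosome 5 region with 31.

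At the other end, the lowest count was 25 Mll-PTD tags (18.8 scaled), with a bound of 6.27-fold and a lower exact limit of 4.72. The 5 first regions with that count in chromosome order lay on chromosomes 2 (57029076 to 57029576), 9 (107985591 to 107986091), 10 (58755250 to 58755750), 11 (106560196 to 106560696) and 14 (43758519 to 43759019). All 5 were 500 bases long and scored 30. The 5 longest regions, of 991 to 999 bases, held 64 to 99 tags. The longest was on chromosome 2 from 26338924 to 26339923 with 64 tags.

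Regions just inside and just outside the limits were compared by their values alone. At the score limit, 16 regions of the set scored 49, with a median of 45.1 scaled Mll-PTD tags, and 14 short autosomal regions without a WT tag scored 50, with a median of 44.3. Nearest the length limit inside, regions of 999, 994 and 992 bases on chromosomes 2, 18 and 4 held 64, 65 and 70 tags. The first ones outside, of 1004, 1008 and 1009 bases on chromosomes 2, 14 and 2, held 82, 72 and 71 tags. At the WT limit, the 2628 regions with 1 WT tag had a median of 24.8 scaled Mll-PTD tags. In all, 168 short regions without a WT tag were left out by their score alone, 203 low ones by their length alone, and 53 by both.

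The clonal fold is a score of the authors' caller. The file header describes its limit of 2 as a fold under the unique tag positions expected, which is read here as more tags piled on the same positions at a higher value; how the score was computed is not given in the sources used here. The score is taken here to describe the Mll-PTD tags, on which the regions were called. It was not used to choose the 4816 regions from the list, but the caller had left out 37 putative peaks as too clonal. In the regions without a WT tag its median was 0.82 (quartiles 0.75 and 0.90), and in short low autosomal regions with one it was 0.73 (0.67 and 0.80). A clonal fold above 1 was found in 405 of 4816 (8.41%, 7.64% to 9.23%) and in 696 of 24858 with a WT tag (2.80%, 2.60% to 3.01%), against 3.46% of the whole list. The quartile ranges of both sets overlapped, and most regions of the set stayed below 1.

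The clonal fold stepped down between no WT tag and 1 WT tag. The median was 0.82 at no tag, 0.75 at 1, 0.74 at 2, 0.73 at 3 and 0.71 at 4 and 5 WT tags. It rose again in regions with more WT tags, to 0.79 in the 208 regions with 10, where Mll-PTD tags were denser as well, at a median of 64.5 scaled tags per kb against 49.6 in the regions without a WT tag. At equal Mll-PTD tags the gap was present in regions of 500 bases, with medians of 0.78 and 0.70 at 21 to below 24 scaled tags, and 0.88 and 0.78 at 30 to below 36. In all 18 classes of score and length the median was higher without a WT tag, by 0.05 to 0.13, and it was higher on all 19 autosomes. These classes and chromosomes come from the same 2 libraries and are no replicates. Whether piling of tags has a part in the absence of WT tags was not tested.

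**Figure D3:**
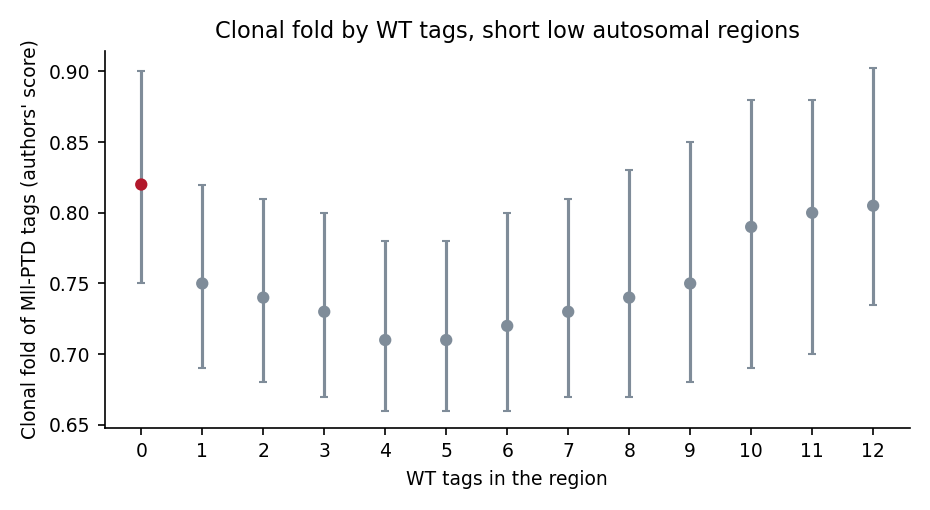
Clonal fold of the Mll-PTD tags (y axis, the authors' score without unit; points are medians, bars the quartiles) by WT tags in short low autosomal regions (x axis, 0 to 12 tags). The red point at no WT tag stands at 0.82, the grey points fall from 0.75 at 1 tag to 0.71 at 4 and 5 tags and rise again above that.

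Read the other way, the share of short low autosomal regions without a WT tag was 4.42% (4.03% to 4.85%) where the clonal fold was below 0.7. It was 14.9% from 0.7 to below 0.8, 26.3% from 0.8 to below 0.9 and 34.0% from 0.9 to below 1. Among the 936 regions from 1 to below 1.2 it was 37.3% (34.2% to 40.5%), and among the 201 above that 29.9% (23.6% to 36.7%). The 5 regions of the set with the highest clonal fold were all 500 bases long. First was chromosome 4 from 98764350 to 98764850, with 73 Mll-PTD tags, a clonal fold of 1.95 and a bound of 18.3-fold. The others, on chromosome 2 from 170081575, chromosome 3 from 152771289 and from 153737151 and chromosome 4 from 99708032, had 42 to 68 tags and clonal folds of 1.56 to 1.64.

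Regions without a WT tag on chromosome 2 had the highest share of clonal folds above 1. Of 361 there, 63 (17.5%, 13.7% to 21.8%) had a clonal fold above 1, while on the other autosomes the share ran from 3.98% (2.29% to 6.38%) on chromosome 14 to 11.3% (7.55% to 15.9%) on chromosome 1. They were spread along chromosome 2, in 18 of the 19 stretches of 10 Mb that held a region of the set. Regions of chromosome 2 with a WT tag did not share this, with 2.88% (2.15% to 3.78%) above 1 against 2.79% on the other autosomes. Without chromosome 2 the share over the set was 7.68%. Chromosome 2 was singled out after the values were seen.

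All 19 autosomes held regions of the set. Chromosomes 7, 14 and 2 held the most, with 418 (8.68% of the set), 402 and 361, and chromosome 18 held the fewest, 108. Per Mb between the first and last listed region, chromosome 17 led with 3.34 and chromosome 14 followed with 3.29, while chromosomes 18 and 1 had 1.23 and 1.24. As a share of short low regions, those without a WT tag made up 20.9% (18.8% to 23.1%) on chromosome 17, 19.8% (17.7% to 21.98%) on chromosome 11, and 18.8% on chromosomes 12 and 14. The share was lowest on chromosome 1, at 11.96% (10.6% to 13.5%), and was 13.1% on chromosomes 3 and 6. The intervals of neighbours in this order overlapped, and those of the highest and lowest 3 did not. Median scaled Mll-PTD tags of the set hardly differed, lying between 24.8 and 26.3 on every autosome. The limits of score and length hold these tags in a narrow range, so nothing is read from this.

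**Figure D4:**
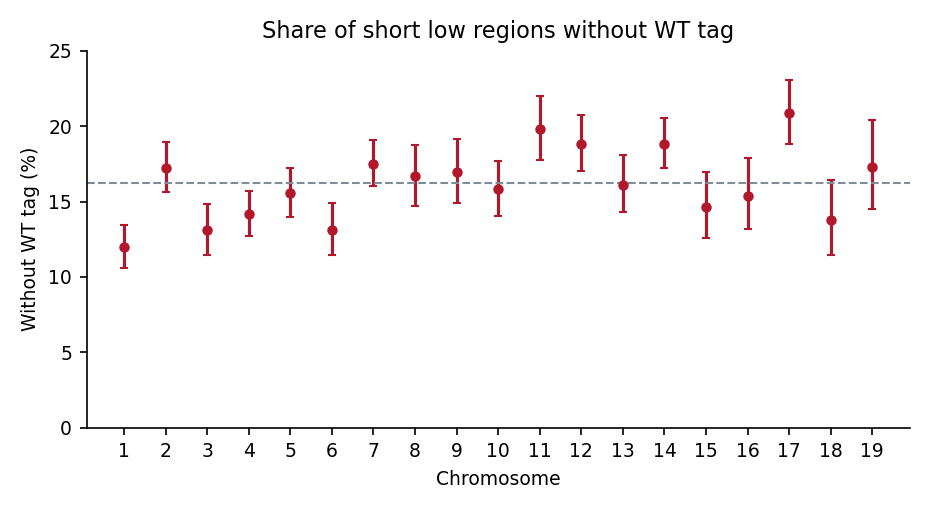
Share of short low regions without a WT tag (y axis, percent, points with exact 95% intervals) by chromosome (x axis, 1 to 19); the dashed line is the share over all autosomes, 16.2%. Chromosomes 17 and 11 stand highest, at 20.9% and 19.8%, and chromosome 1 lowest, at 11.96%.

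Regions of the set were spread over many bins, and most lay within 100000 bases of another one. Of the 2408 bins of 1 Mb that held a short low region, 1552 held a region without a WT tag, with a median of 2, and 591 held exactly 1. The 68 bins with 10 or more held 1064 regions (22.1% of the set). The median gap from a region of the set to the nearest other one was 67745 bases (quartiles 16790 and 217963), and to the nearest listed region of any kind 10549 bases. Within 10000 bases of another region of the set lay 878 (18.2%), and within 100000 bases 2790 (57.9%).

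The share without a WT tag was higher where more regions were listed. In bins with 1 to 5 listed regions it was 10.1% (7.87% to 12.8%), in those with 11 to 20 it was 13.7% (13.1% to 14.3%), and in those with 21 to 50 it was 20.5% (19.6% to 21.4%). It was 22.4% (20.5% to 24.3%) at 51 to 99 and 20.5% (18.8% to 22.3%) in the 19 autosomal bins with 100 or more. WT tags of the remaining short low regions had a median of 4 in each of these classes.

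The crowded bins were unlike each other. The bin of chromosome 17 that starts at 6 Mb held 38 regions of the set between 6005710 and 6951729, 40.9% of its 93 short low regions (30.8% to 51.5%). On chromosome 17 the bin at 13 Mb followed with 18 of 55 (32.7%, 20.7% to 46.7%). On chromosome 14 from 42 to 45 Mb the share was 95 of 384 (24.7%, 20.5% to 29.4%), on chromosome 12 from 23 to 25 Mb 53 of 206 (25.7%, 19.9% to 32.3%), and on chromosome 5 from 94 to 96 Mb 54 of 244 (22.1%, 17.1% to 27.9%). On chromosome 7 from 21 to 24 Mb it was 47 of 373 (12.6%, 9.41% to 16.4%), and on chromosome 4 from 145 to 147 Mb 27 of 227 (11.9%, 7.99% to 16.8%). Outside the crowded bins, the bin of chromosome 13 at 68 Mb stood high as well, with 19 of 42 (45.2%, 29.8% to 61.3%).

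In the crowded bins the clonal fold hardly differed between regions without and with a WT tag, with medians of 0.77 and 0.75. In all other bins the medians were 0.82 and 0.72. A clonal fold above 1 was found in 5 of 429 regions of the set in crowded bins (1.17%, 0.379% to 2.70%) and in 400 of 4387 elsewhere (9.12%, 8.28% to 10.01%). Short low regions with a WT tag were also lower there, with 9 of 1660 (0.542%, 0.248% to 1.03%) in crowded bins and 687 of 23198 (2.96%, 2.75% to 3.19%) elsewhere. Single stretches of crowded bins were unlike each other. The medians without and with a WT tag were 0.84 and 0.75 on chromosome 4 from 42 Mb. They were 0.775 and 0.72 on chromosome 5 from 11 Mb, and both 0.75 on chromosome 14 from 42 to 45 Mb. Only on chromosome 17 from 6 Mb was the order the other way round, with a median of 0.80 without a WT tag and 0.85 with one.

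The tightest groups of the set lay on chromosomes 17, 14, 9 and 2. From 6222630 to 6319684 on chromosome 17, 12 of 22 short low regions had no WT tag. They held 29 to 54 Mll-PTD tags each (scaled median 26.3), and the listed regions between them that had WT tags held 2 to 16. On chromosome 14, 10 of 21 lay from 42935656 to 43033301 and 10 of 19 from 43904989 to 43991201. Away from the crowded bins, chromosome 9 from 78024587 to 78121507 held 9 of 12, with 27 to 68 Mll-PTD tags, and chromosome 2 from 150910889 to 150997916 held 8 of 10, with 29 to 41. In both of these groups, listed regions with as many as 19 and 18 WT tags lay in between.

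Some listed neighbours of the set had no WT tag either. Of 3271 listed neighbours within 10000 bases of a region of the set, 741 (22.7%, 21.2% to 24.1%) had no WT tag. Beside short low autosomal regions with a WT tag it was 1962 of 16375 (11.98%, 11.5% to 12.5%). Of these neighbours, 698 of the 741 and 1866 of the 1962 were regions of the set themselves. The WT value was used to choose the set, so these shares mostly describe how its regions lie together. The share beside the set was the higher one on 18 of 19 autosomes, with chromosome 19 as the exception at 6.12% of 49 neighbours against 13.6% of 301. A neighbour on each side was counted, so that pairs within the set entered from both ends and the intervals are somewhat too narrow.

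Distance was read in steps of the gap between neighbours. Beside the set, the share without a WT tag was 19.2% (15.5% to 23.3%) at up to 1000 bases, 23.7% from 2000 to 5000 bases, 23.9% from 10000 to 20000 and 18.2% (16.4% to 20.2%) beyond 100000. Beside regions with a WT tag it started at 7.09% (6.28% to 7.96%), rose to 17.1% (15.99% to 18.3%) from 5000 to 10000 bases and ended at 11.6% (10.98% to 12.2%). The 2 sets were thus farthest apart in the first 2000 bases. Neighbours within 10000 bases that did have WT tags held a median of 6.31 WT tags per kb beside the set and 7.25 beside the others.

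**Figure D5:**
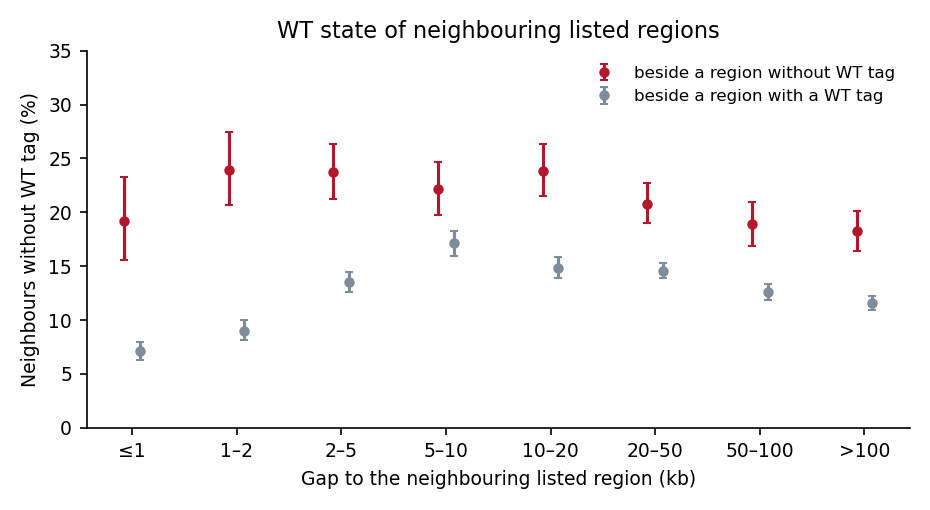
Share of neighbouring listed regions without a WT tag (y axis, percent, points with exact 95% intervals) by the gap to the neighbour (x axis, kb), beside short low autosomal regions without (red) and with (grey) a WT tag. Red points lie between 18.2% and 23.96%, and grey points rise from 7.09% to 17.1% at 5 to 10 kb and end at 11.6%.

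Long regions were found among the neighbours as well. Of listed neighbours within 10000 bases, 18.1% reached 1000 bases in length, against 22.1% beside short low regions with a WT tag. Among the 3271 neighbours, 698 belonged to the set themselves and 33 were regions of at least 1000 bases without a WT tag. The 256 autosomal regions of that kind held more Mll-PTD signal, at a median of 64.1 scaled tags per kb (quartiles 50.4 and 87.1) against 49.6 in the short low ones, and a like clonal fold, at 0.81 against 0.82. Their larger tags follow in part from the choice, which asked the short regions for a score below 50.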

How the data were processed

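H3K4me3 tags of 1 WT and 1 Mll-PTD library were compared. Bowtie 0.12.7, HOMER 4.7 and mm9 are named, per the submitters' processing notes. Per the file headers, regions were called in histone style on Mll-PTD tags with WT as input, at a fold of 4 and a Poisson p-value of 0.0001, with peaks of 500 bases and a false discovery rate of 0.001. The signal columns the authors deposited give tags of Mll-PTD per 10000000 tags, the same scaled to WT, and WT tags as counted. The ratio (fold) and p-value per region, and the scores (tallest peak, clonal fold), are the authors' deposited values.

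Dividing scaled tags by 0.7503 returned whole Mll-PTD tags within 0.1 in 99.998% of regions. Shares carry exact Clopper-Pearson intervals, and bounds set 0 WT tags at 3. Tags are not independent molecules. Neighbours were the next listed autosomal regions, edge to edge. Named regions were the 10 with the most tags, the 5 longest, those with the fewest tags and with the highest clonal fold (5 each), the 5 densest groups within 100 kb, and up to 3 beside each limit. Naming by gene or sequence, also planned, needs mm9 annotation and was not done; the choice of the 4816 regions needs neither. Members and rules were chosen with earlier results of these data known. Alternatives changed score, length, tag and WT limits and left out crowded bins or chromosome 2. The code for neighbour shares and intervals was checked on simulated data with known answers. Tools were matplotlib 3.10.9, pandas 2.3.3, numpy 2.4.6 and scipy 1.17.1 under Python 3.11.15.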

Additional observations from a re-analysis of the deposited data

How the results depend on the processing

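Of 47 alternatives, 22 stayed within the interval of the value, or within 1.5 times the count; the others follow. The number of 4816 became 1271 above 500 bases, 2290 with at least 35 Mll-PTD tags (the median of short low regions) and 7444 with up to 1 WT tag. The share without a WT tag, 16.2%, became 16.9% with a score below 40, 16.9% in regions of 500 bases, 14.6% above that length, 14.6% with at least 35 tags and 25.1% with up to 1 WT tag. The median Mll-PTD density, 49.6 scaled tags per kb, became 48, 48, 50.5, 54 and 48.4 in the same order. The median bound of 8.50 became 8.27 with a score below 40, 8 at 500 bases, 11.8 above that, 10.5 with at least 35 tags and 51.02 with the authors' deposited fold. The share of 500 bases, 73.6%, became 76.5% with a score below 40, 46.1% with at least 35 tags and 74.9% with up to 1 WT tag. The share with a clonal fold above 1, 8.41%, became 13.8% with at least 35 tags, 6.42% with up to 1 WT tag and 0.125% for a clonal fold above 1.5. The share of neighbours without a WT tag, 22.7%, became 28.4% when up to 1 WT tag was counted in both. Leaving out chromosome 2 was chosen after seeing the data. The share of 500 bases was not computed within length classes, where it is fixed. No paired analysis was possible because a single library stands for each genotype. In a single region, 0 WT tags allows up to 3. Spread evenly over the caller's genome size of 2000000000 bases, the WT tags would come to 10.9 per 500 bases. Over all bases of the set they would come to 58436. The 0 counted there was fixed by the choice of the regions, so nothing is read from that difference. The 4-fold threshold also keeps WT tags low in listed regions. In short low autosomal regions with a WT tag their median was 4. Why these regions held no WT tag was not tested.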
